A study of Mus musculus with 12 samples.

Results

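The miRNAs of the imprinted Dlk1-Dio3 domain were followed in the blood extracellular vesicles (bEVs) of mice. Members were taken by name: every entry of the count table called mmu-miR- plus 1 of 42 numbers assigned to this domain, with any letter suffix and either arm. The rule gave 91 mature miRNAs from 46 hairpins, out of 1995 entries in all (1885 miRNAs and 110 piRNAs). Small RNAs were sequenced from the serum bEVs of 12 Rag1-/- mice, which lack mature T and B cells. Of these, 6 had received T cells of wild-type spleens by intravenous injection ("T cells") and 6 had received medium alone ("medium"). All were of the C57BL/6 background, and the study's methods give male mice aged 8 to 12 weeks unless stated otherwise. The vesicle fraction was enriched from each serum by differential ultracentrifugation. Both groups therefore share the Rag1 deletion and the lack of B cells.

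The Dlk1-Dio3 domain is an imprinted stretch of mouse chromosome 12: the protein-coding genes Dlk1, Rtl1 and Dio3 are expressed from the paternal chromosome, and the long non-coding RNAs Meg3, Rian and Mirg, together with the miRNAs, from the maternal one. The miRNAs are expressed strongly in embryo, placenta and brain. In neurons the miR-379 to miR-410 group is induced by activity through the transcription factor Mef2, and mice that lack this group are more sociable. T cell transfer was used in the study to ask what T cells add to the vesicles that circulate in immunodeficient mice, and the comparison below gives the answer for this domain as far as 6 libraries per group allow.

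In the GRCm38 annotation (the build mm10 named by the submitters), 86 of the 91 miRNAs had a RefSeq position on chromosome 12 between bases 109572004 and 109743784, a span of 171.8 kb between Meg3 (chr12:109541001-109571726, + strand) and the end of Mirg (chr12:109729764-109749460, + strand). Of these, 84 lie on the + strand. The other two, both arms of miR-299b, lie on the − strand opposite miR-299a. The first group along the chromosome holds 18 miRNAs of 9 hairpins in and before Rtl1 (chr12:109589193-109600330, − strand), which encodes a protein needed for the placenta's capillaries. Of these, 10 miRNAs of 5 hairpins (miR-431, miR-433, miR-127, miR-434 and miR-136) are exact complements of the Rtl1 transcript, which they are known to cleave. The next group holds 4 miRNAs of 2 hairpins within Rian (chr12:109603940-109661716, + strand), and the last and longest holds 68 miRNAs of 34 hairpins from miR-379 to miR-410, the end of which runs through Mirg. The last of the 91, miR-496b, matched the rule by name but is annotated at chr19:16314894-16314915 on the − strand, outside the domain, and is given apart.

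A sequence was matched in RefSeq (GRCm38.p6) for 87 of the 91 miRNAs. miR-376c-3p, miR-485-5p, miR-487b-3p and miR-539-3p had no entry. The miRNAs on which the comparison turns are printed first, 5′ to 3′, with the seed (bases 2 to 8, which direct the choice of target mRNAs) in capitals.
miR-668-3p: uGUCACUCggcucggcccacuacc
miR-668-5p: gUAAGUGUgccucgggugagcaug
miR-494-3p: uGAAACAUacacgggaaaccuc
miR-134-5p: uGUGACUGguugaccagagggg
miR-433-3p: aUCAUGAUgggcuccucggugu
miR-127-3p: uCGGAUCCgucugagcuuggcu
miR-666-3p: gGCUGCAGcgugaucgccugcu
miR-543-5p: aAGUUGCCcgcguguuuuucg
No pair of these 8 shares a seed. Among the 87 sequences, 4 pairs share one, and they are shown because their targets, and for the closest pairs their reads, may be shared.
miR-379-3p: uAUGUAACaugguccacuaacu
miR-411-3p: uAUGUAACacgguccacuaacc
miR-376b-5p: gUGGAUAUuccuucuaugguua
miR-376c-5p: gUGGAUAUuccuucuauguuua
miR-410-5p: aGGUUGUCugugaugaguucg
miR-494-5p: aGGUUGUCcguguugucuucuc
miR-299a-3p: uAUGUGGGacgguaaaccgcuu
miR-299b-3p: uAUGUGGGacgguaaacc
miR-299b-3p is identical to the first bases of miR-299a-3p, so reads of this pair could have been assigned to either, and their counts are uncertain. The same holds for the 5p arms, although their seeds differ, since miR-299b-5p is miR-299a-5p without its first base. The name-matched miRNA of chromosome 19 is the following.
miR-496b: cAACAUGGccaauuccuuucau
The letters GGAG, known as a binding motif of hnRNPA2B1 in miRNAs that human T cells load into exosomes, were searched in the mature strand of each sequence. They occurred in 5 of the 87 (5.75%: miR-337-5p, miR-539-5p, miR-665-3p, miR-667-5p and miR-673-5p), against 231 of all 1613 miRNAs of the table with a sequence (14.3%). The median GC content was 47.8% against 52.2% for those 1613. None of the 5 miRNAs with GGAG had an unadjusted p under 0.05 in the comparison below.

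The libraries were shallow, with 75475 to 130106 counts in the T cells group and 48997 to 116048 in the medium group. The replicates are separate mice. T cells replicate 2 and medium replicate 3 held no count from 1 to 9 for any entry, unlike the other 10 libraries, so low counts were absent or listed at 0 there. Of the other cell types whose RNA serum can hold, marker miRNAs were present for all 6 lists examined, with none at 0 in every library. Marker levels are CPM, counts per 1000000 counts of the library after the TMM scaling described below. The summed erythroid markers (6 of 6 present) ranged from 37952 to 342371 CPM after T cells and from 26699 to 138670 CPM after medium. The 7 T lymphocyte markers ranged from 12415 to 29171 CPM against 6322 to 21615 CPM, the 4 platelet and myeloid markers from 17028 to 50911 CPM against 7608 to 30453 CPM, and the 2 liver markers from 2142 to 3395 CPM against 1103 to 2588 CPM. The 5 brain markers ranged from 4107 to 8150 CPM against 2744 to 5323 CPM. For the 4 skeletal and heart muscle markers the range was 1012 to 2089 CPM against 784 to 3525 CPM. In that list miR-1a-3p (log2 fold change -0.15) and miR-133a-3p (-0.23) were lower, and miR-206-3p (0.24) and miR-208a-3p (0.38) higher. The erythroid sum was mostly miR-16-5p (79390 against 35673 CPM on average) and miR-486b-5p (46562 against 22985 CPM). Of the erythroid list, miR-144-3p had a log2 fold change of -0.22 and the others 0.40 to 1.15. None of these had an adjusted p under 0.05 in edgeR or DESeq2. Of the brain list, miR-128-3p carried most of the sum (4807 against 2296 CPM on average, adjusted p 0.347 in edgeR and 0.0333 in DESeq2), and the other 4 had log2 fold changes of -0.02 to 0.15. The T lymphocyte sum was mostly miR-142a-3p (14880 against 8456 CPM on average, adjusted p 0.756 in edgeR and 0.212 in DESeq2). The other 6 of that list had log2 fold changes of 0.30 to 0.94. Highest of these was miR-146a-5p, with an adjusted p of 0.358 in edgeR and 0.0448 in DESeq2. In the platelet and myeloid list the highest was miR-126a-3p (19141 against 7454 CPM on average, adjusted p 0.535 in edgeR and 0.0996 in DESeq2). From the same list DESeq2 called miR-223-3p (adjusted p 0.0448) and miR-21a-5p (adjusted p 0.0499). In edgeR their adjusted p was 0.358 and 0.370. The medium mice lack mature T cells and still held 6322 to 21615 CPM of the T lymphocyte list. That list is therefore not specific to T cells, and the specificity of the other lists was not examined. The part of these marker levels in the results below was not tested.

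The cluster was a small part of every library. The 91 miRNAs together took 2.87%, 1.49%, 2.22%, 2.59%, 1.98% and 3.31% of the counts in T cells replicates 1 to 6, and 2.89%, 3.14%, 3.20%, 3.23%, 3.49% and 3.74% in medium replicates 1 to 6. The 95% Wilson intervals, which cover counting error only, were at their narrowest 1.43% to 1.56% (T cells replicate 2) and at their widest 3.58% to 3.91% (medium replicate 6). The mean share was 2.41% ± 0.65 against 3.28% ± 0.30 (SD, n = 6 each), and the groups overlapped, with 1 T cells library inside the medium range and 5 below it. The share was lowest in the library where abundant miRNAs took most. Entries with a mean count under 100 took 32.2% to 65.7% of all counts after T cells and 53.7% to 71.8% after medium. Within those entries alone the cluster took 4.26% to 5.64% after T cells and 5.02% to 5.38% after medium. On that base the means were 4.85% ± 0.46 and 5.20% ± 0.15, so the gap between the groups was 0.35 percentage points in place of 0.87. No test was made of a sum over the cluster.

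**Figure D1:**
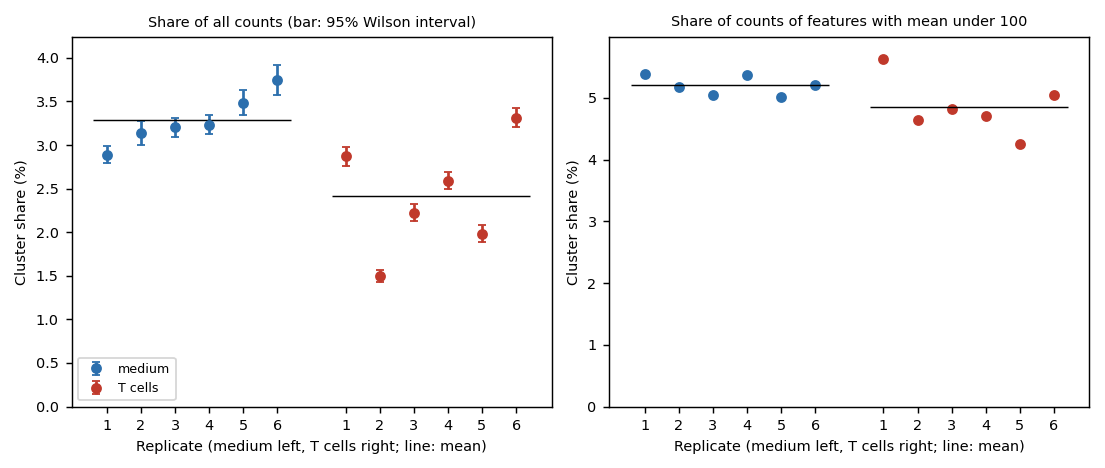
Share of the 91 cluster miRNAs in each library (%), of all counts on the left with 95% Wilson intervals and of the counts of entries with a mean under 100 on the right; blue points are medium, red points T cells, and black lines are group means. Of all counts, 5 T cells libraries lie below the lowest medium library (2.89%), and on the right the T cells libraries spread from 4.26% to 5.64% around the narrow medium range of 5.02% to 5.38%.

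Single miRNAs of the domain were scarce. Their mean counts per library ran from 4.17 to 140 with a median of 21.6, close to the median of all entries (22.3). 52 of the 91 had a count in every library, and 13 reached a mean of 50. The number of cluster miRNAs at 0 was 8, 24, 15, 7, 6 and 6 in T cells replicates 1 to 6 and 7, 5, 11, 4, 8 and 15 in medium replicates 1 to 6, the highest in T cells replicate 2, 1 of the libraries with no count from 1 to 9. Levels below, like the marker levels above, are CPM after TMM scaling, a method that aligns libraries on the bulk of their entries. 1 count was worth 8.43 to 16.9 CPM depending on the library. The mature miRNAs are 18 to 26 bases long, so their counts can be compared without a correction for length, but not free of the sequence preferences of small RNA ligation. CPM are relative to the other entries of a library, so a lower CPM need not mean fewer copies in the serum. Where copies are fewer, fewer vesicles that carry a miRNA and fewer copies in each cannot be told apart here.

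The most abundant member was miR-543-5p, from the middle of the miR-379 to miR-410 group and the 1 member with a mean count over 100. It ranked 55th of all entries. Its level had a lowest, median and highest value of 953, 1518 and 2660 CPM after T cells and 1001, 1672 and 2119 CPM after medium, and the groups overlapped almost fully. Over all 12 libraries it was followed by miR-370-3p of Rian (880 ± 290 against 958 ± 248 CPM, T cells against medium, SD, n = 6 each), by miR-379-5p, the first miRNA of the longest group (850 ± 131 against 811 ± 322.9 CPM), and by miR-323-5p (779 ± 138 against 820 ± 212 CPM). These 3 differ from each other by less than their spread over the mice. After medium alone miR-668-3p, at 952 CPM, came above miR-323-5p and miR-379-5p. In the Rtl1 group the highest over all 12 libraries were miR-431-3p (715 ± 211 against 678 ± 90.3 CPM), whose hairpin is known from muscle regeneration in mice, and miR-540-3p (600 ± 186 against 719 ± 318 CPM). After medium alone miR-127-3p (764 CPM), miR-540-3p and miR-433-3p (706 CPM) lay above miR-431-3p. The arms named for the best known functions were not always the abundant ones: miR-431-5p was at 50.1 ± 64.0 against 119 ± 132.9 CPM and listed at 0 in 3 and 2 libraries. miR-495-3p, which with others of the domain restrains vessel growth in mice, was among the scarcest, at 24.9 ± 55.3 against 76.2 ± 69.0 CPM and at 0 in 4 and 2 libraries.

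**Figure D2:**
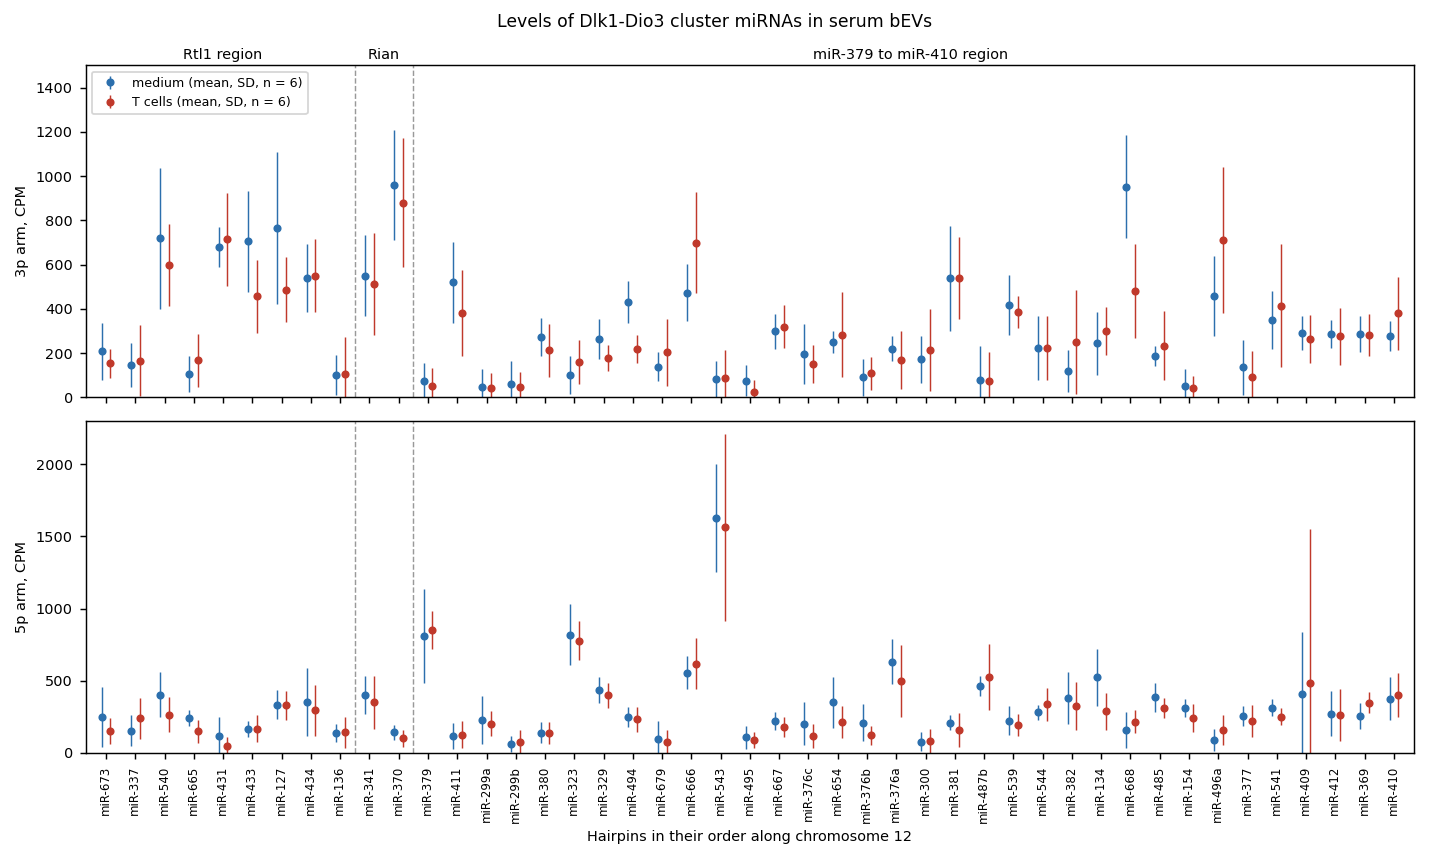
Mean level in CPM (y axis, linear, from 0) of each 3p miRNA (top) and 5p miRNA (bottom) at its hairpin's place in the order along chromosome 12; blue is medium, red is T cells, bars are SD over 6 mice and are cut at 0, and dashed lines part the Rtl1, Rian and miR-379 to miR-410 groups. miR-543-5p stands highest at 1562 CPM after T cells and 1626 CPM after medium, and the blue and red points of most hairpins lie within 1 SD of each other.

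No miRNA of the domain passed the main test after T cell transfer. Of the 91, 77 passed the filter on low counts and were tested with edgeR's quasi-likelihood test, with p-values adjusted by Benjamini-Hochberg over all 1720 tested entries. 0 members were called at an adjusted p under 0.05, and of all entries also 0 (0.0%), where the lowest adjusted p was 0.204. limma voom also called 0. At an unadjusted p under 0.05 edgeR listed 5 lower members (6.49%, against 1.92% of all tested entries) and 1 higher member (1.3%, against 5.06%). Among the 1544 other entries in the members' range of mean counts, edgeR listed 28 lower and 55 higher at this p. limma voom listed 3 lower members (against 1.8% of entries) and 1 higher (against 5.12%). DESeq2, the tool that the study names, gave an adjusted p to 24 members of 561 entries. It called 1 member lower, miR-668-3p (4.17%, against 0.713% of entries), and 0 members higher, against 7.13% of entries. Without the filters of DESeq2, 2 members were called lower, miR-668-3p and miR-494-3p (2.2%, against 0.15%), and 0 higher (background 0.752%). With counts of 1 to 5 members these shares are close to single miRNAs, which are therefore described one by one.

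Taken over the domain, the fold changes lay around those of all entries. Log2 fold changes are T cells over medium, given with a standard error (SE) for a single miRNA. For edgeR the SE was derived as the size of the fold change over the square root of the test's F value. The median log2 fold change was -0.08 over the 77 tested members and -0.05 over all 1720 tested entries. Over the 1544 other entries in the same range of mean counts it was also -0.05. Entries with a mean count of 100 or more had a median of 0.70 over 88 entries. A negative fold change was found for 46 of the 77 (59.7%, against 54.8% of all entries). These numbers follow the scaling: with total counts the median of the cluster was -0.43 and that of all entries -0.38, and with scaling to the abundant miRNAs they were -0.60 and -0.55. The distance between the cluster and all entries stayed small in each case. For no tested member did the 2 groups of mice separate without overlap (over all entries, 0.116% separated with lower and 0.174% with higher levels after T cells).

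By place, the median log2 fold change was -0.14 over 16 tested miRNAs of the Rtl1 group, -0.18 over the 4 of Rian and -0.06 over 56 of the miR-379 to miR-410 group. All 4 miRNAs of Rian had negative values, from -0.46 to -0.08, none with an unadjusted p under 0.05. In the Rtl1 group, the 8 tested exact complements of Rtl1 had a median of 0.01 and the other 8 of -0.35. By arm, the median was -0.01 over 36 3p miRNAs and -0.15 over 40 5p miRNAs. The summed level of the Rtl1 group was 3872, 5262 and 6266 CPM (lowest, median and highest) after T cells and 4941, 6261 and 7124 CPM after medium. That of the miR-379 to miR-410 group was 16579, 19437 and 23497 CPM against 19676, 20596 and 21647 CPM, with the T cells libraries on both sides of the medium range. Another 22 miRNAs of the domain lie outside the rule. Of these, 20 were tested, 0 were called by edgeR or DESeq2, 1 was lower at an unadjusted p under 0.05, and their median was -0.16.

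**Figure D3:**
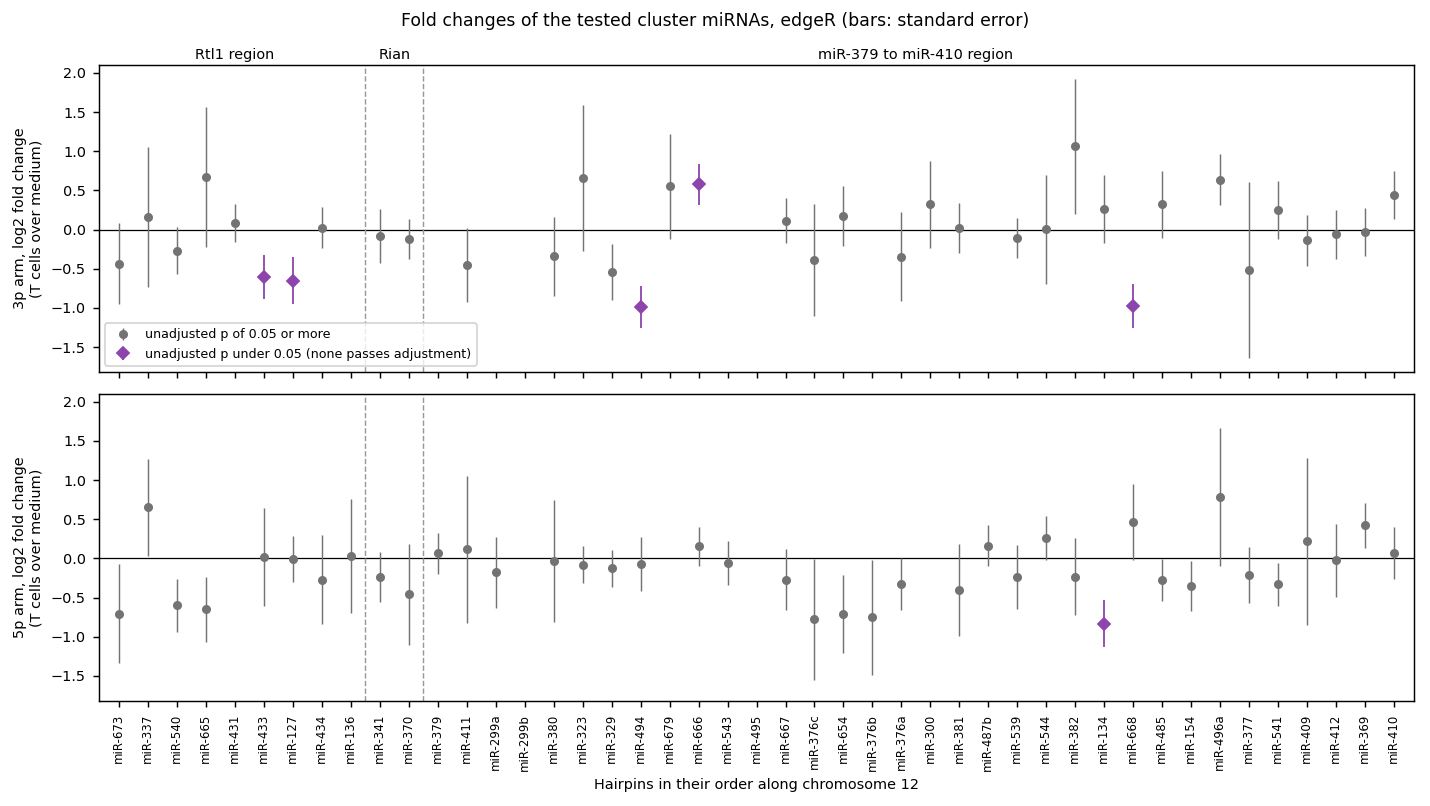
Log2 fold change (T cells over medium, edgeR, y axis) of the 76 tested chromosome 12 miRNAs, 3p above and 5p below. Hairpins stand in their order along the chromosome, and bars are standard errors derived from the edgeR test statistic. Purple diamonds mark the 6 with an unadjusted p under 0.05, of which 5 are negative (miR-433-3p, miR-127-3p, miR-494-3p, miR-134-5p and miR-668-3p) and 1 positive (miR-666-3p), and none passes adjustment.

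In the Rtl1 group, the 2 members with an unadjusted p under 0.05, miR-433-3p and miR-127-3p, were exact complements of Rtl1 and lower after T cells. Decreases of similar size were not limited to complements. Of the 8 tested members without an Rtl1 complement, 5 had negative and 3 positive log2 fold changes. The lowest were miR-673-5p at -0.71 (SE 0.64), miR-665-5p at -0.65 (SE 0.41) and miR-540-5p at -0.60 (SE 0.34). miR-433-3p was at 291, 417 and 683 CPM (lowest, median and highest) after T cells and at 464, 663 and 1063 CPM after medium. Its log2 fold change was -0.61 (SE 0.28), with an unadjusted p of 0.0434 and an adjusted p of 0.673 in edgeR and an adjusted p of 0.151 in DESeq2. 3 T cells libraries lay below every medium library, and 3 lay within the medium range. miR-127-3p, from a hairpin known to guide cleavage of the Rtl1 transcript in mice, was at 289, 494.4 and 640 CPM against 429, 639 and 1250 CPM. Its log2 fold change was -0.65 (SE 0.30, adjusted p 0.673 in edgeR and 0.153 in DESeq2), and its highest value came from medium replicate 3, a library with no count from 1 to 9. Without that library and T cells replicate 2 the fold change was -0.41. Differences from the neighbouring hairpins were not tested. miR-434-3p was at 390, 504 and 849 CPM against 347, 567 and 715 CPM, a log2 fold change of 0.03 (SE 0.26) that turned to -0.36 with total counts. miR-136-5p was at 0, 126.1 and 330 CPM against 72.6, 137 and 235 CPM, a log2 fold change of 0.03 (SE 0.72), -0.27 with total counts. miR-431-3p had a log2 fold change of 0.08 (SE 0.24), -0.25 with total counts. Of the other arms of these 3 hairpins, miR-434-5p had -0.27 (SE 0.57), and miR-431-5p (50.1 against 119 CPM) and miR-136-3p did not pass the filter. The other arms of the lower miRNAs were flat, miR-433-5p at 0.02 (SE 0.63) and miR-127-5p at -0.006 (SE 0.29). In the test of arm ratios described below, neither hairpin was called (limma adjusted p 0.974 for miR-433 and 0.887 for miR-127).

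miR-494-3p, known in mice as a brake on the growth of collateral vessels, had the lowest p of the domain. Its level was 159, 203 and 337.005 CPM (lowest, median and highest) after T cells and 315, 424 and 565 CPM after medium. These values rest on 13 to 49 counts per library. All but 1 T cells library lay below every medium library, and the remaining one exceeded only the lowest medium library. The means were 218 ± 64.5 and 432 ± 94.7 CPM (SD, n = 6 each). The log2 fold change was -0.99 (SE 0.27), with an unadjusted p of 0.00166 and an adjusted p of 0.259 in edgeR. DESeq2 gave no adjusted p under its default filters and 0.0333 without them. The other arm of the same hairpin, miR-494-5p, was at 234 ± 86.5 against 249 ± 70.8 CPM, a log2 fold change of -0.07 (SE 0.35). An exact two-sided permutation test over the 924 arrangements of 6 against 6 gave p = 0.00433 for the level of miR-494-3p, where 0.00216 is the smallest possible value. The miRNA was singled out because of its values, so this p describes the overlap and is not independent support.

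miR-668-3p was the 1 member called by DESeq2 under its default filters. Its level was 256, 456 and 815 CPM (lowest, median and highest) after T cells and 678, 954 and 1350 CPM after medium, with 17 to 112 counts per library. 5 T cells libraries lay below every medium library, and 4 medium libraries lay above every T cells library. The means were 479 ± 212 and 952 ± 233 CPM (SD, n = 6 each). The log2 fold change was -0.97 (SE 0.28), with an unadjusted p of 0.0029 and an adjusted p of 0.263 in edgeR, and DESeq2 gave an adjusted p of 0.0126. In DESeq2 it was called with each of the 12 libraries left out in turn (adjusted p 0.00469 to 0.0378), but not without both libraries that hold no count from 1 to 9 (adjusted p 0.0881, log2 fold change -0.84). The exact permutation test gave p = 0.00649. The direction was the same with total counts (-1.25) and with scaling to the abundant miRNAs (-1.43).

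miR-134-5p comes from the hairpin just before miR-668 (chr12:109734145-109734166 for miR-134-5p and chr12:109734774-109734797 for miR-668-3p). miR-134 is known from rat hippocampal neurons, where it limits the size of dendritic spines through Limk1. Its level was 186, 245 and 548 CPM after T cells and 391, 447 and 910 CPM after medium. 5 T cells libraries lay below every medium library, and replicate 6, the highest of the T cells group, lay within the medium range. The log2 fold change was -0.83 (SE 0.31), with an adjusted p of 0.390 in edgeR and 0.0540 in DESeq2, and an exact permutation p of 0.0173. The difference between neighbouring miRNAs was not tested, and their values were as follows. miR-668-3p, of the next hairpin, had the log2 fold change of -0.97 given above. miR-134-3p had a log2 fold change of 0.26 (SE 0.44), which was -0.088 with total counts and 0.034 without medium replicate 6, where it had 1 count. miR-382-5p, of the hairpin before, had -0.23 (SE 0.49), and miR-485-5p, of the hairpin after miR-668, which acts on the synaptic vesicle protein SV2A in rat neurons, had -0.28 (SE 0.27).

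**Figure D4:**
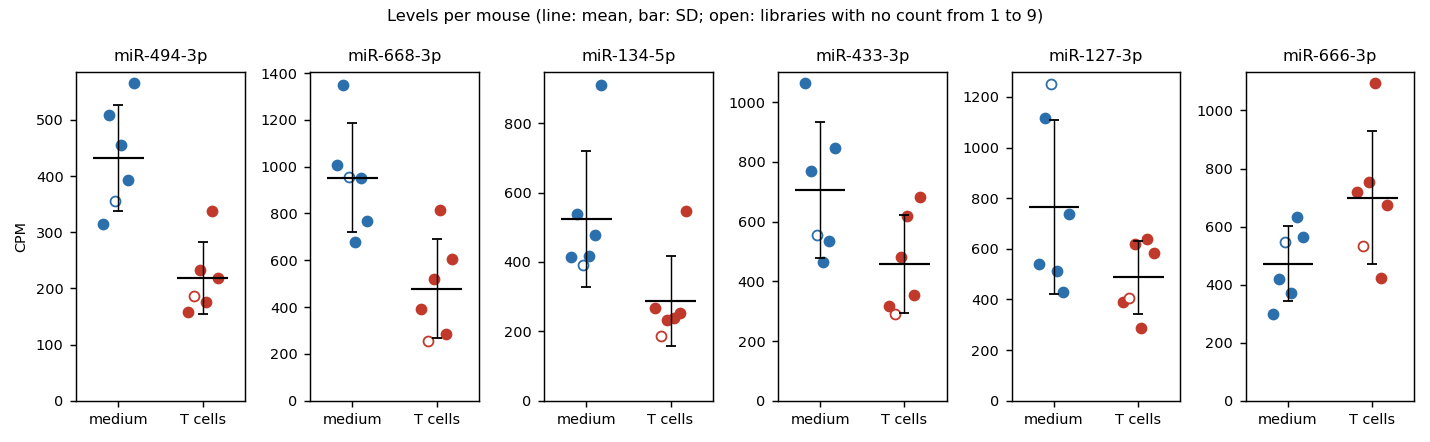
Level in CPM of 6 cluster miRNAs in each mouse (points; blue is medium, red is T cells), with the mean and SD in black; open points are medium replicate 3 and T cells replicate 2, the libraries with no count from 1 to 9. Each y axis starts at 0 and has its own range, and in every panel the points of the groups overlap, least for miR-494-3p, where 5 T cells libraries lie under the lowest medium library of 315 CPM.

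On the other side, miR-666-3p had the lowest p among the members with higher levels after T cells. It was at 421, 697 and 1093 CPM after T cells and 297, 484 and 632 CPM after medium, and 4 T cells libraries lay above every medium library. The log2 fold change was 0.58 (SE 0.26), with an adjusted p of 0.673 in edgeR and 0.180 in DESeq2, and it was 0.23 with total counts and 0.037 with scaling to the abundant miRNAs. Its other arm, miR-666-5p, was at 618 ± 175 against 557 ± 112 CPM. miR-496a-3p was at 320, 649 and 1257 CPM against 286, 419 and 724 CPM, a log2 fold change of 0.64 (SE 0.32, adjusted p 0.794 in edgeR), and 0.28 and 0.12 with these scalings. Without T cells replicate 1, its highest library, it was 0.40 in edgeR and 0.38 in DESeq2. The last hairpins of the cluster followed with miR-410-3p, known to promote the division of newborn cardiomyocytes in rodents, at 0.44 (SE 0.31, and 0.25 without T cells replicate 3), and miR-369-5p at 0.42 (SE 0.29). Both turned negative, to -0.04 and -0.09, with scaling to the abundant miRNAs. miR-369-3p, which binds the TNF mRNA in human cells, had -0.03 (SE 0.30).

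Other members named for a known role were as follows. miR-381-3p was at 538.95 ± 186 against 538.96 ± 238 CPM, a log2 fold change of 0.02 (SE 0.32, and -0.32 with total counts). miR-329-3p, another brake on vessel growth in mice, had -0.55 (SE 0.36). Its 6 T cells libraries all lay below the medium median of 274 CPM, and only 1 lay below the lowest medium library. miR-541-5p had -0.33 (SE 0.27). miR-411-5p had 0.12 (SE 0.94, and -0.42 with total counts) on a mean count of 9.83. miR-376b-3p, of a family whose precursors are edited from A to I, did not pass the filter and was at 109 ± 73.7 against 91.4 ± 82.4 CPM.

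In all, 14 members did not pass the filter, with mean counts from 4.17 to 10. The other 53 tested members outside the naming rule had log2 fold changes from -0.78 to 1.06, 32 negative and 21 positive, with standard errors from 0.24 to 1.13 and no unadjusted p below 0.0950. miR-409-5p varied most, from 0 to 218 counts. Its level was 0, 10.3 and 2660 CPM after T cells and 0, 226 and 1171 CPM after medium, so its mean of 485.5 CPM after T cells rests on 1 library. miR-496b, on chromosome 19, was at 358 ± 188 against 511 ± 181.2 CPM, a log2 fold change of -0.51 (SE 0.33, adjusted p 0.958 in edgeR).

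The ratio of the 2 arms of a hairpin does not depend on the scaling of the libraries, since both counts come from the same library. It was tested with limma on the log2 ratio of 3p to 5p counts (with 0.5 added to each) over all 582 hairpins with both arms past the filter, of which 33 were cluster hairpins. No cluster hairpin had an adjusted p under 0.05, and of all 582 also 0 (0.0%). At an unadjusted p under 0.05 there was 1 cluster hairpin, against 28 of all 582 (4.81%). By the median size of the log2 ratio, the arms of the domain were as uneven as elsewhere (0.96, and 0.96 over all hairpins). The 3p arm was the higher in 20 of the 33. A 4-fold ratio over the 12 libraries was exceeded by 6 of the 33 (18.2%), against 18.9% of all. This count moved with the setting. With 1 added to each count it was 3 of 33, against 93 of 582. With at least 10 counts over both arms in every library it was 11 of 37, against 189 of 595. miR-370 had most of its counts on the 3p arm, with a log2 ratio of 3.12 ± 0.84 after T cells and 2.71 ± 0.76 after medium. miR-323 had most on the 5p arm, with -2.82 ± 2.15 and -3.95 ± 2.26.

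The hairpin with the unadjusted p under 0.05 was miR-668. Its log2 ratio of 3p to 5p counts was -0.44, 0.97 and 2.36 (lowest, median and highest) after T cells and 1.71, 3.01 and 3.17 after medium. 4 T cells libraries lay below every medium library. The difference was -1.68 (SE 0.50), with an unadjusted p of 0.00509 and an adjusted p of 0.860 in limma and an exact permutation p of 0.00866. While miR-668-3p was lower after T cells, miR-668-5p was at 218 ± 77.9 against 159 ± 125 CPM, a log2 fold change of 0.47 (SE 0.48, and -0.090 with scaling to the abundant miRNAs), on 5 to 30 counts per library. It was 0.98 without medium replicate 2, its highest library, and 0.28 without T cells replicate 2. The hairpin of miR-494 had a ratio of -0.03 ± 0.76 against 0.81 ± 0.30, a difference of -0.84 (SE 0.41, unadjusted p 0.0622 in limma, exact permutation p 0.0346). That of miR-134 differed by 1.52 (SE 0.82, unadjusted p 0.0862 in limma), and by 0.75 (SE 0.49) without medium replicate 6, where miR-134-3p had 1 count. The 5 permutation tests given here, for 3 levels and 2 ratios, were chosen after the values were seen and are not adjusted for that choice.

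**Figure D5:**
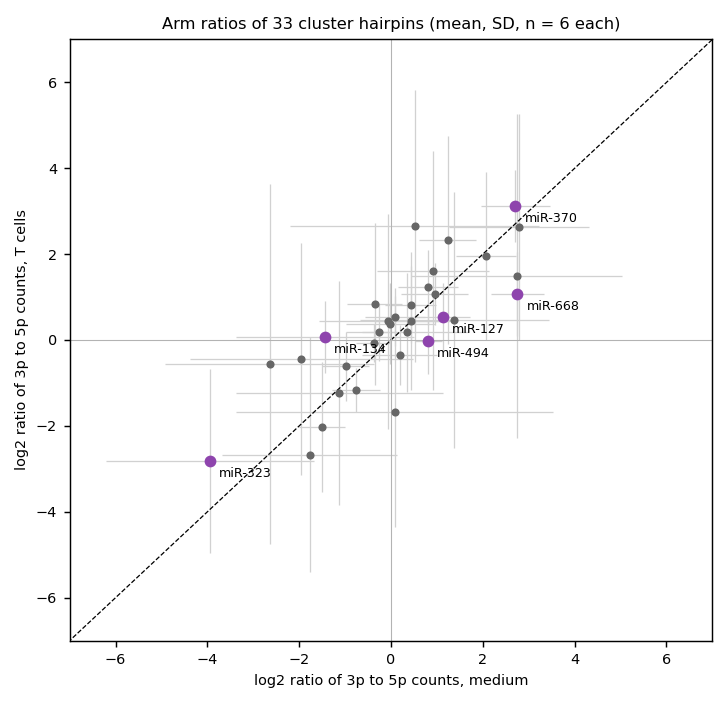
Mean log2 ratio of 3p to 5p counts of the 33 cluster hairpins with both arms tested, after medium (x axis) and after T cells (y axis), with SD over 6 mice as grey bars; the dashed line marks equal ratios, and purple points carry names. miR-668 lies 1.68 below the line, miR-370 (2.71 and 3.12) at the 3p end and miR-323 (-3.95 and -2.82) at the 5p end.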

How the data were processed

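Serum bEV small RNA libraries (Qiagen miRNA kit) of 12 mice, 6 per group, were used. The authors called bases with bcl2fastq 2.18.0.12, trimmed the reads, identified UMIs and aligned to miRBase and mm10 in the Qiagen GeneGlobe center. The deposited table holds whole-number counts per miRNA or piRNA, not normalized, and whether these are reads or UMIs is not stated in the sources used here. Groups came from the sample titles. All 1995 entries were filtered (filterByExpr by group), scaled by TMM and tested with edgeR 4.0.16 in R 4.3.3 (threshold 0.05). DESeq2 1.42.0 and limma 3.58.1 voom were alternatives, with other scalings, filters, features, a replicate block and libraries left out. Arm ratios were fitted with limma. Permutation tests used Python 3.11.15, scipy 1.17.1 and pandas 2.3.3. Procedures were tested on simulated data. Named miRNAs were those called by edgeR or DESeq2, the 8 most abundant, the 4 with the lowest p in each direction, and 20 with known roles. Others were chosen after their values were seen. Members and lists were chosen with earlier results of these data known. DESeq2 with libraries left out, the low-count denominator and other scalings of single levels were chosen after seeing the data.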

Additional observations from a re-analysis of the deposited data

Results flagged for a closer look

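For a library that stands apart from the other 5, 56 groups of 6 libraries were examined, mainly levels of the 27 named miRNAs. Such a library was judged by the gap to its nearest neighbour as a share of the group's range (critical value 0.625). Chance gives about 1 in 20 groups, and 7 of the 56 had such a library. For miR-134-5p, replicate 6 was the highest library of both groups, with 548 CPM after T cells (next 268 CPM) and 910 CPM after medium (next 537 CPM). For miR-382-5p, T cells replicate 2 was listed at 0 (next 317 CPM), and medium replicate 5 was at 727 CPM (next 408 CPM). miR-431-3p was at 303 CPM in T cells replicate 5 (next 708 CPM). miR-495-3p was at 137 CPM in T cells replicate 3 (next 12.2 CPM). miR-541-5p was at 134.05 CPM in T cells replicate 4 (next 267 CPM).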

How the results depend on the processing

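edgeR called 0 members under each scaling, filter and omitted library, limma voom 0, and the arm ratios 0 under each alternative. DESeq2 called 1 member, 2 without its filters and 0 without both libraries that hold no count from 1 to 9. With each library left out in turn it called 1 to 2 (miR-668-3p in 12 of these 12 fits, miR-494-3p in 3 and miR-134-5p in 1). In these fits DESeq2 gave an adjusted p to miR-494-3p only in the 3 that called it, and to miR-134-5p in 7. The unadjusted DESeq2 p of miR-494-3p ran from 5.92e-05 to 0.00117 over the 12 fits. The median log2 fold change of the cluster was -0.08, against -0.43 with total counts and -0.60 with scaling to the abundant miRNAs. The gap in summed share (-0.87 percentage points) was -0.35 within entries of a mean count under 100. Replicate numbers are shared by the groups, and the sample titles do not say whether equal numbers mark a pair. Same-numbered libraries did not deviate together (correlations from -0.23 to 0.08). So few values from shallow libraries cannot settle whether the numbers pair them. With the replicate block edgeR called 0 members, with a median of -0.14.

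Named members changed sign, none of them called and the largest at 0.44 (miR-410-3p), and the cause was not tested. With total counts miR-136-5p had -0.27, miR-379-5p -0.25, miR-381-3p -0.32, miR-411-5p -0.42, miR-431-3p -0.25 and miR-434-3p -0.36. With scaling to the abundant miRNAs these had -0.48, -0.41, -0.49, -0.66, -0.41 and -0.51, and miR-369-5p had -0.093 and miR-410-3p -0.039. miR-136-5p had -0.0052 with DESeq2 (with and without filters), -0.0054 with RLE size factors, -0.016 with upper quartile and -0.35 with the replicate block. miR-381-3p had -0.00024 with DESeq2, -0.00040 with RLE and -0.00037 with upper quartile. With limma voom miR-381-3p had -0.029, miR-411-5p -0.24, miR-431-3p -0.089 and miR-434-3p -0.17. With at least 50 counts in 6 libraries miR-379-5p had -0.055 and miR-431-3p -0.031. Without both libraries that hold no count from 1 to 9, edgeR and DESeq2 gave 0.00091 and 0.00038 for miR-369-3p, -0.0023 and -0.00043 for miR-379-5p, -0.18 and -0.19 for miR-381-3p, -0.26 and -0.27 for miR-434-3p, and 0.018 and 0.023 for miR-543-5p. With each library left out in turn in both tools, the range was -0.44 to 0.28 for miR-136-5p, -0.21 to 0.013 for miR-323-5p, -0.20 to 0.086 for miR-369-3p, -0.092 to 0.21 for miR-379-5p, -0.14 to 0.17 for miR-381-3p, -0.40 to 0.056 for miR-382-5p, -0.17 to 0.48 for miR-411-5p, -0.16 to 0.13 for miR-434-3p and -0.29 to 0.051 for miR-543-5p. At mean counts of 4.17 to 140 per miRNA and a biological coefficient of variation of 0.472, differences near the size of the standard errors could not be resolved.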
